A study of Mus musculus with 11 samples.

Results

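The genes described here are 9 genes of megakaryocytes and platelets: Pf4, Ppbp, Itga2b, Itgb3, Gp1ba, Gp1bb, Gp5, Gp9 and Gp6. They were chosen by name, and every probe of the array whose gene name, or current symbol through its accession, was one of the 9 was taken. This gave 10 probes, of which Itgb3 has 2 and each other gene 1, among 15851 genes with a symbol that were tested. Liver RNA of 11 newborn pups had been hybridised in 1 colour to Agilent arrays of the mouse genome, to compare livers with constitutively active Notch with control livers. The mutants were Double transgenic AFP-Cre/Rosa26-lsl-NICD pups on the day of birth (day 0, n = 3), set against Mono transgenic Rosa26-lsl-NICD controls of day 0 (n = 2), and mutants of the same genotype at day 2 (n = 3), set against controls at day 2 (n = 3). All pups were of a hybrid 129 x C57BL/6 background and all carried the Rosa26-lsl-NICD allele, in which a stop cassette precedes NICD, the active intracellular part of the Notch receptor. In the mutants Cre was driven by the AFP promoter, which is active in the hepatoblast lineage, and no group carried AFP-Cre without the Rosa26 allele, so effects of Cre and of NICD cannot be told apart.

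Megakaryocytes arise from haematopoietic progenitors and shed platelets, and in the mouse the liver is a site of blood formation before birth and for some days after it. Their granules are packed with chemokines, and their surface carries receptors for fibrinogen, von Willebrand factor and collagen that let platelets stick to a damaged vessel and to each other. The genes of these proteins are widely used to mark the lineage, and many are under the control of GATA1, FLI1 and other ETS factors, and RUNX1.

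In bulk liver, fewer cells of a type and less RNA per cell cannot be told apart. Each value below is log2 of the processed probe signal relative to the 75th percentile of the signals on the same array, so that 0 is the level of that percentile. All 10 probes were well above background on all 11 arrays and none was saturated, so the lineage was measurable in every group. Levels of different genes come from different probes and are not compared.

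Mutant day 0 replicate 3 stood apart from the other arrays. It correlated at 0.952 and 0.954 across genes with the other mutants of day 0, while other pairs within a group reached at least 0.983, and of 15646 genes with a value on every array, 468 were lower on it than on any other array by 2-fold or more and 600 were higher by as much. On each other array these counts were at most 66 genes. The array carried the mutant state: Sox9, a bile duct transcription factor, had 3.18, 2.32 and 2.22 in mutants of day 0, against -0.79 and -0.94 in controls of day 0. Nrarp, a Notch target, had 0.85, 0.61 and -0.03 in these mutants, against -3.16 and -3.38 in these controls. Results that rest on replicate 3 are therefore given with and without it. The labels do not say how the pups were drawn from litters, so p-values measure the spread between these pups, and the number of arrays limits the precision.

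The 9 genes lie on chromosomes 5, 6, 7, 11 and 16. Pf4 and Ppbp are neighbours on chromosome 5, with 2372 bases between them in GRCm38.p6, and the annotated position of Gp1bb overlaps that of Septin5. Promoters of 300 bases around the annotated start were at hand from RefSeq (GRCm38.p6) for 8 of the 9 genes, all but Itgb3. They were searched on both strands for GATAA, letters that GATA factors bind and that read TTATC on the other strand. The letters searched for ETS factors were AGGAAG, which reads CTTCCT on the other strand, and CGGAAG, which reads CTTCCG there. Those searched for RUNX factors were TGTGGT. A match to GATAA was found in 5 of the 8, against 25.4% of 32851 promoters of this length, the ETS letters in 6 against 46.5%, and TGTGGT in 1 against 16.8%. Pf4, Gp1ba, Gp5 and Gp9 held both GATAA and an ETS match, as did 10.8% of all promoters. These 4 are printed 5′ to 3′ in the direction of the gene, because they show the letters in a granule chemokine and in 3 chains of one receptor, with GATAA or TTATC and the ETS matches in capitals. No capital run overlaps another.

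Pf4 promoter, chr5:90772185-90772484, plus strand: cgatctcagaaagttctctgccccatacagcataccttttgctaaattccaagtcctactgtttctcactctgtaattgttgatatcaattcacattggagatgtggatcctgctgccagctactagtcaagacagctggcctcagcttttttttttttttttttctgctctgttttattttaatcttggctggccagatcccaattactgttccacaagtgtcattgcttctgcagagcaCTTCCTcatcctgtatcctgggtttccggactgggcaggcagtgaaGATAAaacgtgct
Gp1ba promoter, chr11:70638872-70639171, plus strand: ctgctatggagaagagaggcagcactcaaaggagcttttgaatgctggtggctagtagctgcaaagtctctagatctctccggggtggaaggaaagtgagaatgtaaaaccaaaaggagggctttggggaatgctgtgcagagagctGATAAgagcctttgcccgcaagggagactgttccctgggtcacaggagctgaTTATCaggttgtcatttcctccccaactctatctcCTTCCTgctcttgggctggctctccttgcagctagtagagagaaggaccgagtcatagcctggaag
Gp5 promoter, chr16:30310732-30311031, minus strand: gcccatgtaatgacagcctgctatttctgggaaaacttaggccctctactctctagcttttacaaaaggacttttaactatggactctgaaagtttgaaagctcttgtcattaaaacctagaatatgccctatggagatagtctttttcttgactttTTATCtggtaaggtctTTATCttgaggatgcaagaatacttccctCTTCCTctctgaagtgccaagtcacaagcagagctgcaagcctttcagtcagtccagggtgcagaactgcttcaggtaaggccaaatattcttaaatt
Gp9 promoter, chr6:87777820-87778119, plus strand: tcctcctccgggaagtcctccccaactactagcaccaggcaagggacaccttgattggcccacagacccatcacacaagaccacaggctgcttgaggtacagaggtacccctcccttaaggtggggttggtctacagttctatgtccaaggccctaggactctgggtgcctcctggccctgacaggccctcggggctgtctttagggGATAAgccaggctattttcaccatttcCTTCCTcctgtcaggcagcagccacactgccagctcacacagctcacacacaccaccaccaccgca

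In Gp9 the GATAA began at -43 and the CTTCCT at -16, counted from the start in that RefSeq table as 0. In Gp1ba the TTATC began at -51 and the CTTCCT also at -16. Gp5 had TTATC at -93 and -77 and CTTCCT at -48, and Pf4 had CTTCCT at -9 and GATAA at 37, downstream of the start. Such matches describe letters and do not show that a factor was bound in these livers.

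With all 11 arrays, mutants lay below controls in all 9 genes when the days were averaged, by 0.74 to 1.15 on the log2 scale, with a median of -0.97 against -0.05 over all genes tested, of which 56% were lower. Of the 9 genes, 2 passed limma's test after Benjamini-Hochberg adjustment over all genes (threshold 0.05), both lower in mutants, against 6.93% of all genes. These were Gp1bb and Ppbp. At an unadjusted p under 0.05, 8 of the 9 were lower, against 15.6% of all genes. Without mutant day 0 replicate 3, 9 of 9 passed as lower, against 12.7% of all genes, by 0.98 to 1.5, with adjusted p from 0.000218 to 0.02. Itgb3 passed there on its brighter probe only. Its other probe did not pass (-0.53 ± 0.2, limma adjusted p = 0.0976 over all probes). With pup sex as a covariate on all arrays, 0 of 9 passed over both days, against 2.23% of all genes. All 9 were at least 1.5-fold lower over both days, against 10.6% of all genes.

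**Figure D1:**
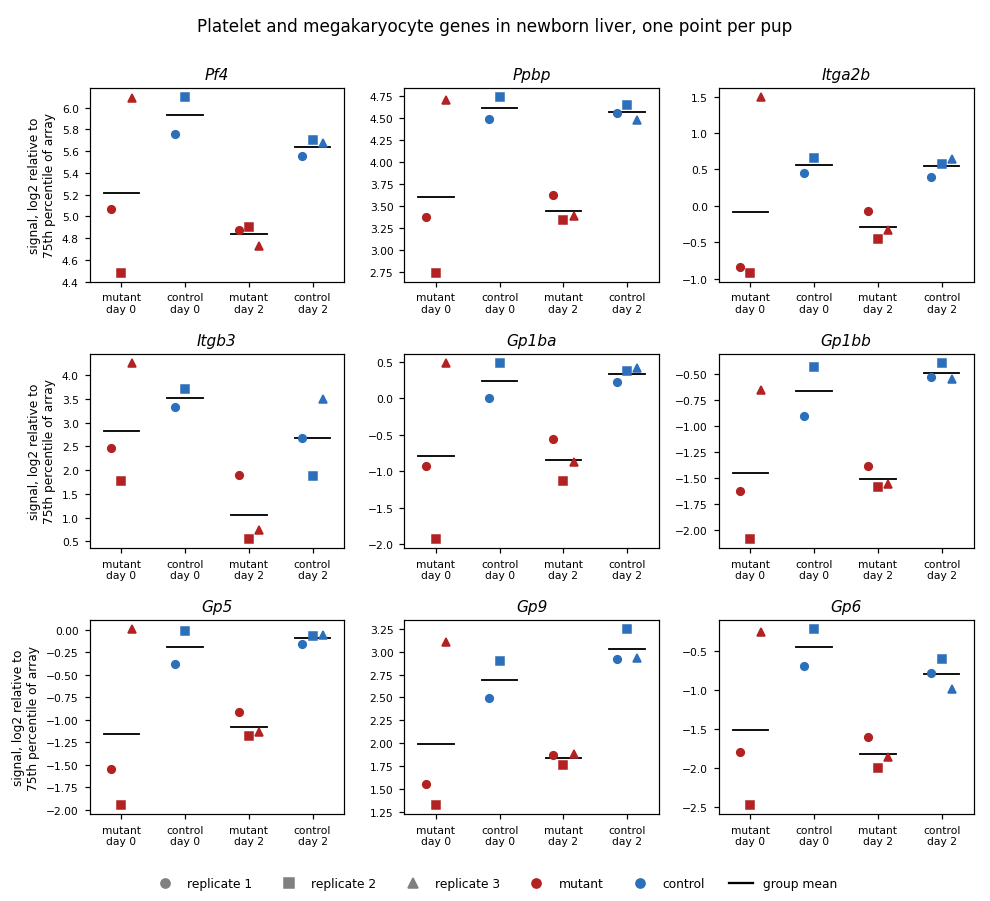
Signal of each of the 9 genes (log2 relative to the array's 75th percentile) in mutants of day 0, controls of day 0, mutants of day 2 and controls of day 2. Each point is 1 pup, its shape gives the replicate number, red is mutant, blue is control and the line is the group mean; Itgb3 is read from the brighter of its probes. Mutant day 0 replicate 3 (triangle) lies far above the other day 0 mutants in all 9 panels, and at day 2 the mutant points lie below the control points in all panels but Itgb3.

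Pf4 and Ppbp encode chemokines of the alpha granules. Pf4 (listed as Cxcl4 in the array files), platelet factor 4, had 5.07, 4.48 and 6.09 in mutants of day 0, against 5.76 and 6.10 in controls of day 0. At day 2 Pf4 had 4.87, 4.90 and 4.73 in mutants, against 5.55, 5.70 and 5.67 in controls. The 3 mutants of day 2 lay below all 3 controls, while at day 0 replicates 1 and 2 lay below both controls and replicate 3 lay between them. The difference over both days was -0.76 ± 0.25 (SE, limma adjusted p = 0.0705) and -0.98 ± 0.13 without replicate 3 (limma adjusted p = 0.00136).

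Ppbp (listed as Cxcl7), pro-platelet basic protein, is the precursor of further platelet chemokines and had 3.37, 2.74 and 4.7 in mutants of day 0, against 4.49 and 4.74 in controls of day 0. At day 2 Ppbp had 3.62, 3.34 and 3.38 in mutants, against 4.55, 4.65 and 4.48 in controls. Again the groups did not overlap at day 2, and at day 0 replicate 3 alone reached the range of the controls. Ppbp was lower in mutants by -1.06 ± 0.30 over both days (SE, limma adjusted p = 0.0408), a 2.09-fold fall, and by -1.34 ± 0.14 without that array (limma adjusted p = 0.000346). The call on all arrays was lost without any 1 of 9 arrays, all but mutant day 0 replicates 2 and 3, with limma adjusted p from 0.0647 to 0.14.

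Itga2b and Itgb3 encode the alpha IIb and beta 3 chains of the fibrinogen receptor. Itga2b had -0.84, -0.92 and 1.5 in mutants of day 0, against 0.45 and 0.66 in controls of day 0. At day 2 Itga2b had -0.07, -0.46 and -0.33 in mutants, against 0.40, 0.58 and 0.65 in controls. Replicates 1 and 2 of the day 0 mutants thus lay below both controls and replicate 3 above both, by 0.95 over the control mean, the widest upward gap of the 9 genes on that array. The difference was -0.74 ± 0.40 over both days (SE, limma adjusted p = 0.262) and -1.13 ± 0.11 without replicate 3 (limma adjusted p = 0.000218).

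Itgb3 was read by 2 probes that did not behave alike. The brighter one, designed on a cDNA clone (chr11:104486448-104486507 on mm8, the build of the array files), had 2.47, 1.77 and 4.26 in mutants of day 0, against 3.33 and 3.70 in controls of day 0. At day 2 this probe had 1.89, 0.55 and 0.75 in mutants, against 2.67, 1.88 and 3.49 in controls. Here the groups touched at day 2, with the highest mutant at 1.89 and the lowest control at 1.88, and the spread within both groups was wide. The difference was -1.15 ± 0.48 over both days (SE, limma adjusted p = 0.147) and -1.5 ± 0.37 without replicate 3 (limma adjusted p = 0.02).

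The other Itgb3 probe, designed on the RefSeq transcript (chr11:104483266-104483336 on mm8), had 1.80, 1.68 and 1.05 in mutants of day 0, against 2.12 and 1.93 in controls of day 0. At day 2 it had 2.56, 1.99 and 2.49 in mutants, against 3.62, 3.08 and 2.64 in controls. On this probe every mutant lay below every control of its day, replicate 3 of day 0 included. The difference over both days was -0.64 ± 0.22 (SE, limma adjusted p = 0.0869 over all probes), against -1.15 ± 0.48 on the cDNA probe in the same fit. The estimates of change with age had opposite signs on the probes, and none passed with all arrays. Day 2 minus day 0 was 1.09 ± 0.32 in controls on the RefSeq probe and -0.83 ± 0.72 on the cDNA probe (limma adjusted p = 0.0639 and 0.484 over all probes). In mutants these differences were 0.84 ± 0.29 and -1.77 ± 0.64 (limma adjusted p = 0.0695 and 0.0805). Without mutant day 0 replicate 3 those of mutants were 0.61 ± 0.28 and -1.06 ± 0.52 (limma adjusted p = 0.158 and 0.185 over all probes). In controls the RefSeq probe then passed (1.09 ± 0.28, limma adjusted p = 0.0264). The cDNA probe did not (-0.83 ± 0.52, limma adjusted p = 0.272). What the cDNA probe reads besides Itgb3 was not tested, so counts that include Itgb3 rest on a probe of unsure content.

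**Figure D2:**
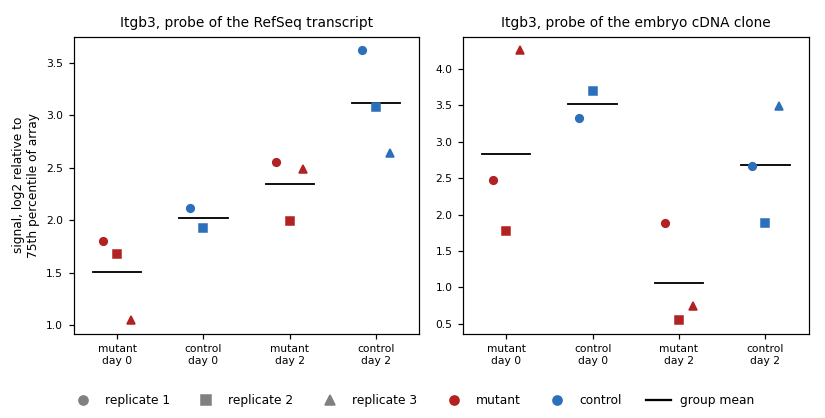
Signal of both Itgb3 probes (log2 relative to the array's 75th percentile) by group, with 1 point per pup, shape for the replicate number and a line for the group mean. In both genotypes the group means of the RefSeq probe are higher at day 2 than at day 0, and those of the cDNA probe are lower. The RefSeq probe keeps mutants below controls of their day, while the cDNA probe puts mutant day 0 replicate 3 (4.26) above both day 0 controls.

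The receptor for von Willebrand factor is built from the products of Gp1ba, Gp1bb, Gp5 and Gp9. Gp1ba, whose product holds the binding site for von Willebrand factor, had -0.93, -1.93 and 0.49 in mutants of day 0, against 0.01 and 0.48 in controls of day 0. At day 2 Gp1ba had -0.55, -1.13 and -0.87 in mutants, against 0.22, 0.37 and 0.42 in controls. The day 2 groups lay apart by 0.77 at their nearest points, and at day 0 replicate 3 was level with the higher control. The difference was -1.11 ± 0.37 over both days (SE, limma adjusted p = 0.0732) and -1.43 ± 0.21 without replicate 3 (limma adjusted p = 0.00216).

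Gp1bb, whose product is linked to that of Gp1ba by disulfide bonds, had -1.63, -2.09 and -0.65 in mutants of day 0, against -0.90 and -0.43 in controls of day 0. At day 2 Gp1bb had -1.39, -1.59 and -1.56 in mutants, against -0.53, -0.39 and -0.55 in controls. All mutants but replicate 3 of day 0 lay below every control of their day. Gp1bb was lower by -0.91 ± 0.24 over both days (SE, limma adjusted p = 0.0301), a 1.87-fold fall, and by -1.11 ± 0.13 without replicate 3 (limma adjusted p = 0.000705). Its call on all arrays was lost without any 1 of 8 arrays, all but mutant day 0 replicates 2 and 3 and control day 2 replicate 3, with limma adjusted p from 0.0536 to 0.128, and the part of Septin5 transcripts in its signal was not tested.

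Gp5, the chain of the receptor that thrombin cleaves, had -1.55, -1.95 and 0.01 in mutants of day 0, against -0.38 and -0.01 in controls of day 0. At day 2 Gp5 had -0.91, -1.18 and -1.14 in mutants, against -0.16, -0.07 and -0.06 in controls. Gp9, the small chain needed to bring the receptor to the surface, had 1.55, 1.32 and 3.11 in mutants of day 0, against 2.49 and 2.90 in controls of day 0. Both genes repeated the pattern of Gp1ba at day 0, with replicates 1 and 2 below both controls and replicate 3 at or above the higher one. At day 2 Gp9 had 1.87, 1.76 and 1.88 in mutants, against 2.92, 3.25 and 2.93 in controls. Over both days the difference was -0.97 ± 0.31 for Gp5 and -0.95 ± 0.30 for Gp9 (SE, limma adjusted p = 0.0649 and 0.0607). Without replicate 3 it was -1.27 ± 0.12 and -1.23 ± 0.12 (limma adjusted p = 0.000239 and 0.000249).

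Gp6, the collagen receptor of platelets, had -1.79, -2.47 and -0.25 in mutants of day 0, against -0.68 and -0.21 in controls of day 0. At day 2 Gp6 had -1.59, -1.99 and -1.85 in mutants, against -0.78, -0.59 and -0.98 in controls. The day 2 groups did not overlap, and replicate 3 of the day 0 mutants lay between the controls. The difference was -1.04 ± 0.35 over both days (SE, limma adjusted p = 0.0736) and -1.36 ± 0.17 without replicate 3 (limma adjusted p = 0.000997).

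At day 0 the call rests on 1 pup. With all arrays 0 of the 9 genes passed limma's adjusted test in that contrast, against 0.713% of all genes called lower, and 1 was lower at an unadjusted p under 0.05 (Ppbp), against 7.07%. The differences were -0.64 to -1.06, with a median of -0.79 against -0.01 over all genes, of which 51.1% were lower. Without replicate 3, which leaves 2 mutants against 2 controls, 8 of 9 passed as lower, against 2.37% of all genes, with a median of -1.43. The exception was Itgb3 on its cDNA probe (-1.39 ± 0.58, limma adjusted p = 0.225). Its RefSeq probe did not pass either (-0.29 ± 0.31, limma adjusted p = 0.716 over all probes). Replicates 1 and 2 lay below both controls in 9 of 9 genes, against 25.3% of all genes, and all 3 mutants did so in 0 of 9, against 15% of all genes. On the RefSeq probe of Itgb3, which these counts leave out, all 3 mutants lay below both controls. The day 0 mutants were all female and both day 0 controls male by Xist and Y-linked genes, so sex and genotype cannot be told apart on that day, and with sex as a covariate the Itgb3 difference of day 0 turned to 0.55.

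At day 2 each genotype had 1 male and 2 females. Every mutant of that day lay below every control in 8 of 9 genes, against 24.7% of all genes. Itgb3 was the exception on its cDNA probe, while on its RefSeq probe the groups lay apart by 0.08. All 9 differences were below 0, as were 58.4% over all genes. The fit to all 11 arrays passed 0 of the 9, against 6.55% of all genes, with Gp1bb nearest (-1.02 ± 0.31, limma adjusted p = 0.0539), and 7 of 9 were lower at an unadjusted p under 0.05, against 15.8%. That fit takes its spread from all 4 groups, and the median SD of the 9 genes was 1.04 in mutants and 0.27 in controls of day 0, and 0.15 in mutants and 0.11 in controls of day 2. Fitted to the day 2 arrays alone, with the same differences, 8 of 9 passed as lower, against 11.6% of all genes. Itgb3 did not pass on its cDNA probe (-1.61 ± 0.51, limma adjusted p = 0.068). Nor did it on its RefSeq probe (-0.77 ± 0.29, limma adjusted p = 0.111 over all probes). The adjusted p of these 8 ranged from 0.00269 for Gp9 (-1.19 ± 0.13) to 0.0118 for Itga2b (-0.83 ± 0.14). With all groups but without mutant day 0 replicate 3, 9 of 9 passed, against 15.1% of all genes, with Itgb3 read from its cDNA probe. The RefSeq probe of Itgb3 did not pass there (-0.77 ± 0.25, limma adjusted p = 0.0569 over all probes).

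**Figure D3:**
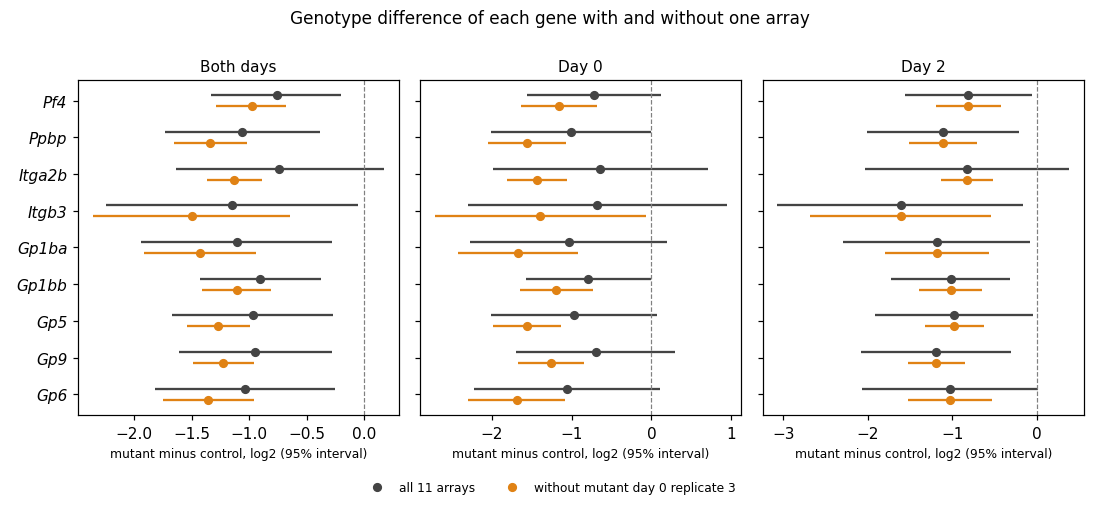
Fitted log2 difference, mutant minus control, of the 9 genes over both days, at day 0 and at day 2, from all arrays and without mutant day 0 replicate 3. Bars are the 95% confidence intervals of limma; all points lie below 0, the intervals of day 0 narrow and move down without that array, and those of day 2 narrow about unchanged points.

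Pup by pup, the 9 genes shifted together, with Itgb3 read from its cDNA probe. The median of the 9 deviations from the control mean of the day was -1.17, -1.74 and 0.21 on the mutant arrays of day 0, and -0.81, -1.21 and -1.07 on those of day 2. Over all genes this median was -0.02, 0.05 and -0.03, and -0.13, -0.01 and -0.1. On the 5 mutant arrays other than replicate 3 of day 0, 9 of 9 genes were below that control mean, and on replicate 3 it was 0 of 9, with a range of 0.02 to 0.95. The RefSeq probe of Itgb3 went the other way on replicate 3, with 1.05 against 2.12 and 1.93 in controls of day 0. Within a slide, mutants of day 0 were lower than the control beside them in 9 of 9 genes on slides 1 and 2, with medians of -0.94 and -1.93, and slide 3 held no day 0 control. At day 2 the medians within slides 1, 2 and 3 were -0.78, -1.31 and -1.05, with 9 of 9 genes lower on each. The share of all genes lower within each slide was not computed. In the fits to group means, 51.1% of all genes were lower at day 0 and 58.4% at day 2. The position of an array on its slide was the same for all arrays of a group, so position and group cannot be told apart.

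**Figure D4:**
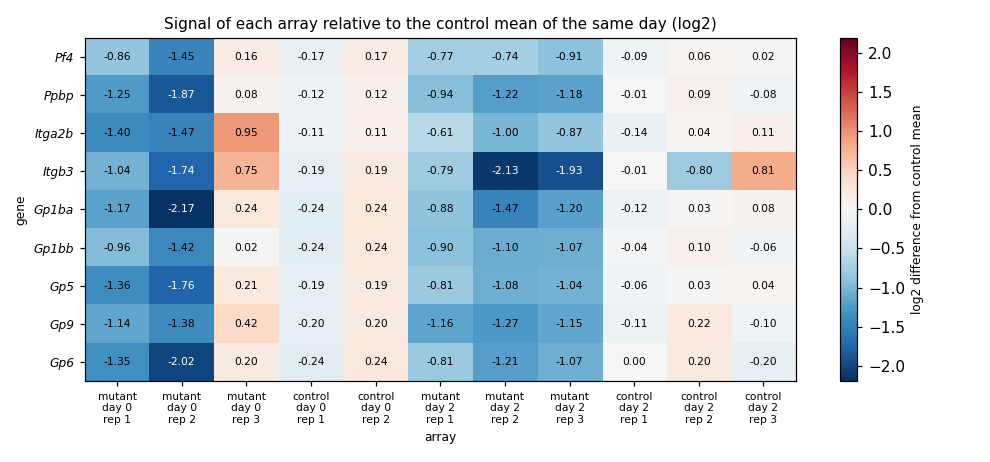
Deviation of each array from the control mean of its day (log2) for the 9 genes, with mutant and then control arrays of day 0 followed by those of day 2; blue is below and red above that mean. Itgb3 is read from the brighter of its probes. The 5 mutant columns other than mutant day 0 replicate 3 are blue in all 9 rows, and that column runs from 0.02 to 0.95.

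The genotype difference itself did not pass a test of change between the days in any of the 9 genes (limma, interaction, 0 of 9 lower against 0.0379% and 0 of 9 higher against 0.233% of all genes), and 0 of 9 had an unadjusted p under 0.05, against 6.64% of all genes lower and 8% higher. Its size was imprecise, for example -0.09 ± 0.50 for Pf4 and -0.49 ± 0.59 for Gp9 (SE). Without mutant day 0 replicate 3 these were 0.35 ± 0.27 and 0.06 ± 0.24 (SE, fit over all probes). The median of the 9 genes then turned from -0.15 to 0.45. In that setting 0 of 9 passed, against 0.36% of all genes lower and 1.44% higher. In mutants, day 2 against day 0 gave 0 of 9 calls in either direction, against 11.3% of all genes lower and 9.4% higher, and Itgb3 alone had an unadjusted p under 0.05 (0.022, lower). Without replicate 3 of day 0, Gp5 (0.67, limma adjusted p = 0.0259) and Itga2b (0.59, limma adjusted p = 0.026) were higher in mutants of day 2 than in mutants of day 0, against 10.2% of all genes. In controls 0 of 9 passed in either direction, against 5.7% lower and 5.46% higher, with differences of -0.83 to 0.34 and 0 of 9 at an unadjusted p under 0.05.

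The genes whose signal ran most like the mean of the 9 over the 11 arrays included known platelet genes. Among the highest Pearson correlations were those of Treml1, a receptor of platelet granules (r = 0.990), Mrvi1, a target of cGMP signalling (0.972), Cd226, an adhesion receptor (0.969), and Lat, an adaptor of collagen receptor signalling (0.955). Then came Slc6a3, the dopamine transporter (0.954), Dlg2, a scaffold protein, and Serpinb2, a protease inhibitor (0.95 each), Arhgdib (0.945), and Rasa3, a regulator of Ras proteins (0.942). Of 14003 genes compared, 38 (0.271%) were above 0.9, and mutant day 0 replicate 3 enters each of these values. Among the 9 genes themselves the 36 pairwise correlations ran from 0.631 to 0.984, and from 0.88 without Itgb3.

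Further genes of the lineage were grouped into 6 lists with 81 genes, of which 77 were tested. Over both days 20 of the 77 were lower and 5 higher, against 6.93% and 8.81% of all genes, with a median of -0.42. Without mutant day 0 replicate 3 these counts were 41 and 6, against 12.7% and 13.1% of all genes. At day 0 the list counts were 0 lower and 0 higher with all arrays, against 0.713% and 1.6% of all genes, and 15 and 0 without replicate 3, against 2.37% and 3.28%. At an unadjusted p under 0.05 they were 10 and 2 with all arrays, against 7.07% and 7.94%. At day 2 they were 11 lower and 6 higher with all arrays, against 6.55% and 9.66% of all genes, and 35 and 9 without replicate 3 of day 0, against 15.1% and 14.8%.

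Of the transcription factors of megakaryocytes, 8 of 15 were lower over both days, against 6.93% of all genes. Of these 15, 0 were higher, against 8.81%, and 7 did not pass. Without replicate 3, 9 were lower, against 12.7% of all genes. Gata1, the GATA factor of the red cell and megakaryocyte lineages, had 1.25, 0.66 and 1.08 in mutants of day 2, against 2.80, 2.52 and 2.31 in controls of day 2. At day 0 Gata1 had 1.48, 1.70 and 1.03 in mutants, against 1.98 and 1.96 in controls. Its groups did not overlap on either day, replicate 3 of day 0 was its lowest mutant of that day and not its highest, and the difference was -1.06 ± 0.17 (SE, limma adjusted p = 0.00284). Nfe2, needed for platelet shedding, was lower by -0.83 ± 0.14 (SE, limma adjusted p = 0.00354), Lyl1, a partner of GATA factors, by -0.70 ± 0.09 (0.00128), and Gfi1b, a repressor, by -0.74 ± 0.17 (0.017). Fli1, an ETS factor of the lineage, had a difference of -0.25 ± 0.15 (SE, limma adjusted p = 0.319). In none of the 15 did the day 0 difference pass, with or without replicate 3. Gata1 also marks red cell precursors and stands in the erythroid list below.

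Of the 11 agonist receptors, 3 were lower and 2 higher over both days, and 6 and 2 without mutant day 0 replicate 3. The shares over all genes were 12.7% lower and 13.1% higher without that array, and 6.93% and 8.81% with all arrays. P2ry1, an ADP receptor, was lower by -0.68, F2rl3, a thrombin receptor, by -0.82, and Ptger3, a prostaglandin E receptor, by -0.62 (limma adjusted p = 0.0228, 0.0228 and 0.0273). Adra2a, an adrenergic receptor, went the other way, with 1.30, 1.72 and 1.57 in mutants of day 2, against -2.35, -1.52 and -1.33 in controls of day 2. It rose by 2.62 on the log2 scale over both days (limma adjusted p = 0.00452). Among 18 genes of granule contents and secretion, 2 were lower and 3 higher with all arrays, and 10 and 3 without mutant day 0 replicate 3. These counts stand against the same shares of all genes, 6.93% lower and 8.81% higher with all arrays. The higher ones were Clu (clusterin, 1.10, limma adjusted p = 0.00373), Serpine2 (a protease inhibitor, 0.63, 0.0318) and Gng11 (a G protein chain, 0.44, 0.0391), none of which is made by megakaryocytes alone. Serping1, the C1 inhibitor, which hepatocytes also make, was lower by -0.98 (limma adjusted p = 0.0284).

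Of 18 tested genes of signalling and the cytoskeleton, 6 were lower and 0 higher, and 13 were lower and 1 higher without replicate 3. The shares over all genes were 12.7% lower and 13.1% higher without that array, and 6.93% and 8.81% with all arrays. Fermt3, the kindlin that activates platelet integrins, was lower by -0.68 (limma adjusted p = 0.00622), Syk, a kinase of many blood cells, by -0.67 (0.0206), Ptgs1, the cyclooxygenase of platelets, by -0.58 (0.0236), and Tbxas1, the thromboxane synthase, by -0.63 (0.0293). Of 10 other adhesion receptor genes, 1 was lower with all arrays and 3 without replicate 3, against 6.93% and 12.7% of all genes. The gene lower with all arrays was Clec1b, the podoplanin receptor, which had 0.95, 0.85 and 1.14 in mutants of day 2, against 2.22, 2.12 and 1.96 in controls of day 2. The median of that list was 0.10, above 0, and its sign turned to -0.12 without replicate 3. The adhesion ligand Vwf, which endothelial cells also make, had a difference of -0.46 ± 0.37 (SE, limma adjusted p = 0.464).

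Of 5 tested growth factors that act on megakaryocytes, 0 passed limma's adjusted test over both days, against 6.93% of all genes lower and 8.81% higher. At an unadjusted p under 0.05 the count over both days was also 0 in either direction, against 15.6% and 14.2%. At day 2, 1 was higher at an unadjusted p under 0.05, against 14.8% of all genes. Without mutant day 0 replicate 3, 1 was lower and 1 higher at day 2 after adjustment, against 15.1% and 14.8%. Thpo, the hormone made by the liver that drives megakaryocyte growth, had 1.11, 1.27 and 1.77 in mutants of day 0, against 1.31 and 1.21 in controls of day 0. At day 2 it had 1.05, 0.89 and 1.32 in mutants, against 1.43, 1.56 and 1.39 in controls. The groups overlapped at day 0 and were apart by a narrow gap at day 2, and the difference over both days was -0.12 ± 0.14 (SE, limma adjusted p = 0.623). Tubb1, the beta tubulin of platelets, was not analysed here.

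Lists of other cell types were read on the same arrays. On mutant day 0 replicates 1 and 2, the granulocyte list moved with the platelet genes, with median deviations of -0.89 and -1.22 over 15 genes. On replicate 3 both medians were above the control mean, at 0.21 for the platelet genes and 0.22 for the granulocyte list. Control day 0 replicate 2 had 0.19 and 0.34. The erythroid list of 18 genes stayed near the controls on replicates 1 and 2 (-0.28 and -0.10) and lay lower on replicate 3 (-1.07). At day 2 the order was another: the erythroid list was lower on all 3 mutant arrays (-1.10, -1.83 and -1.12), and the granulocyte list by less (-0.32, -0.31 and -0.43). On replicate 3 of day 0 the lymphoid list of 10 genes was at -1.78 and the macrophage list of 15 at -0.98, although the platelet genes were above the control mean.

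Over both days, 8 of 18 erythroid, 0 of 15 granulocyte, 6 of 15 macrophage and 5 of 11 hepatocyte genes passed as lower and none as higher by limma, and 10 of 10 bile duct genes passed as higher, against 6.93% of all genes lower and 8.81% higher. Of 15 endothelial genes 3 were lower and 1 higher, and of 9 mast cell and basophil genes 3 were lower. Of 11 stem and progenitor genes 2 were lower. Of 10 lymphoid genes 0 passed by limma, and 1 was lower at an unadjusted p under 0.05, against 15.6% of all genes. At an unadjusted p under 0.05, 4 granulocyte genes were lower and 0 higher, against 15.6% and 14.2% of all genes. After adjustment, 12 granulocyte genes passed as lower without mutant day 0 replicate 3, against 12.7% of all genes. Without that array 14 erythroid, 10 macrophage, 8 hepatocyte, 6 endothelial, 4 stem and progenitor, 2 mast cell and basophil and 0 lymphoid genes were lower, against 12.7% of all genes. The summed signal of the granulocyte list was 535 to 1120 times the 75th percentile in mutants of day 0 and 781 to 1070 times in controls of day 0, and 392 to 400 times in mutants of day 2 and 462 to 528 times in controls of day 2. That of the erythroid list was 1240 to 1580 times in mutants and 1450 to 1510 times in controls of day 0, and 502 to 732 times in mutants and 1130 to 1490 times in controls of day 2. For the 9 platelet genes it was 36.4 to 129 times in mutants and 96.6 to 121 times in controls of day 0, and 44.7 to 51.7 times in mutants and 89 to 97 times in controls of day 2. Of these lists, Ahsp, Hbb-b1, Cd3e, Ncr1, Tpsab1 and Serpina1a were not among the genes tested. The part of shifts in other blood cells in the fall of the platelet genes was not tested.

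**Figure D5:**
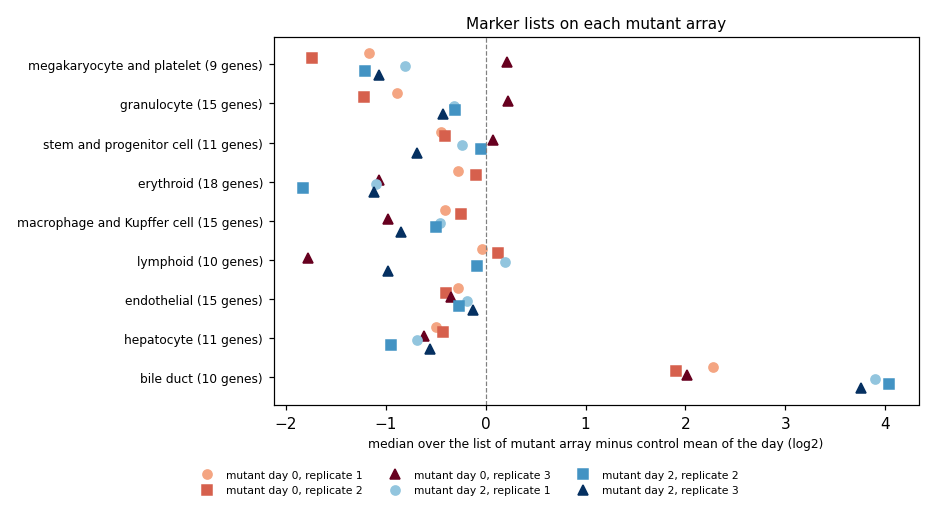
Median deviation of each mutant array from the control mean of its day (log2) over the platelet genes and 8 lists of cell type markers, with 1 point per mutant pup, day 0 in reds and day 2 in blues. Mutant day 0 replicate 3 (dark triangle) sits above 0 for the platelet (0.21) and granulocyte (0.22) lists and far below 0 for the erythroid (-1.07) and lymphoid (-1.78) lists.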

How the data were processed

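The arrays (design 014868) were read with Feature Extraction 9.5.3.1 and its protocol GE1-v5_95_Feb07, per the file headers. The deposited processed signal is a background-subtracted and detrended intensity without scaling across arrays. A further deposited file gives log2 values of 33322 probes, from RMA per the submitters' processing notes, with settings not given in the sources used here. It was used as an alternative.

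The values used are log2 of the processed signal minus that array's 75th percentile over non-control spots, which was 607.72 to 1301.55 units of intensity, with 63.3% to 68.6% of spots well above background. Outlier spots were left out, 27094 of 41174 probes, those well above background throughout 1 or more groups, were tested, and a gene was read from its brightest tested probe over all arrays. RefSeq accessions gave the symbol of 23366 probes. Probe positions are on mm8, per the file headers. limma 3.58.1 under R 4.3.3, with data.table (version 1.17.8), gave each of the 4 groups a coefficient and shared 1 spread over 11 arrays (7 residual and 2.39 prior degrees of freedom), with Benjamini-Hochberg adjustment over 15851 genes. 

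The replicate number is also the slide number. At day 2, deviations from group means correlated at 0.28, 0.226 and 0.258 between mutants and controls of the same number and at -0.213 to -0.0502 between others, so the numbers pair these arrays. At day 0 the values were 0.0604 and 0.0911. Alternatives were this replicate number as a fixed or random block, quantile and median scaling, normexp, the authors' table, other probe filters and probe rules, array weights, pup sex, the arrays of 1 day, and leaving out each array.

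The members, lists and tests were chosen with earlier results of these data known. All 9 members are named whatever their values, with up to 4 genes of each further list by smallest p over both days, Gata1, Fli1, Nfe2, Thpo and Vwf in any case, and the 10 named genes with the highest correlation to the mean of the 9. One gene that these rules take is not reported here. Sox9 and Nrarp were added to check the labels.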

Additional observations from a re-analysis of the deposited data

How the results depend on the processing

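Over both days all 9 genes were lower in mutants under each alternative run, and so they were at day 2. The count passing over both days (2 with all arrays) was 1 with quantile scaling (6.25% of all genes lower), 4 with median scaling (6.83%), 4 with normexp (7.15%), 1 with no filter on dim probes (3.89%), 9 with array weights (15.9%), which gave mutant day 0 replicate 3 a weight of 0.107 against 0.624 to 2.2 for the others, and 0 with pup sex as a covariate (2.23%). With the mean of a gene's probes it was 3 (6.91%), and Itgb3 then passed (-0.89, limma adjusted p = 0.029). Leaving out 1 array at a time gave 0 to 9, with 2.7% to 12.7% of all genes lower. At day 0 the count (0 with all arrays) was 8 with array weights (3.44%) and 0 to 8 with an array left out (0.0379% to 2.37%). At day 2 (0 with all arrays) it was 1 with median scaling (6.69%), with normexp (7.35%), with probes above background on every array (8.03%) and with the mean of a gene's probes (6.41%), 8 with array weights (19.4%) and 8 with the day 2 arrays alone (11.6%). With an array left out it was 0 to 9 (2.57% to 15.1%), with 3 passing without mutant day 0 replicate 2. For mutants of day 2 against day 0 (0 with all arrays) it was 1, lower at day 2, with the sex covariate (6.79%) and 0 to 2 with an array left out (4.81% to 12.1% of all genes lower). The 2 were higher at day 2, without mutant day 0 replicate 3, against 10.2% of all genes higher. Among the differences of mutant against control, 1 value changed sign, Itgb3 at day 0, which was 0.55 with the sex covariate. Between days, the median of the 9 genes changed sign without mutant day 0 replicate 3. It went from -0.15 to 0.45 for the change of the genotype difference between the days. For mutants of day 2 against day 0 it went from -0.16 to 0.39. With the replicate number as a block, the counts were 2 over both days (5.5% of all genes lower), 0 at day 0 (0.479%) and 0 at day 2 (6.07%), and the block changed no call among the 9 genes. Median scaling moved the median of all genes between days to 0.18 in each genotype, against 0 in mutants and -0.02 in controls. In these settings the cause of a changed count was not tested.

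Groups of 2 or 3 arrays and 1 array that stands apart limit the precision. At day 0 sex and genotype cannot be told apart, and that day also enters the average over both days. All 10 probes were well above background, which shows that they were detected. With normexp as the background correction, 4 of the 9 genes passed as lower over both days, against 2 without it. Their median difference was -0.89 with normexp and -0.97 without it. The part of background in the size of these differences was not tested.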
